A study of Drosophila melanogaster with 37 samples.

Results

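Long single-gene transcription units are the stranded intervals of the study's annotation that hold exactly 1 gene symbol and span at least 40 kb on chromosome X, 2L, 2R, 3L, 3R or 4. There were 231 of them among the 15991 units of the annotation, and among 14709 single-gene units on these chromosomes and arms. Length and gene number chose them, so their length is a description. They were set beside the other 14478 single-gene units, and in particular beside the 1174 units of 10 to 40 kb, the class nearest to them in length.

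The annotation belongs to a study that profiled RNA polymerase II (Pol II) by mNET-seq, a method that reads the nascent RNA held by immunoprecipitated polymerase, in fruit fly embryos at stage 15. Its 37 samples form 12 groups of 2 to 4, each a combination of sex (female or male), RNAi carried by the mothers (control or MofKD, an RNAi against the histone acetyltransferase gene mof) and Pol II form (total, or phosphorylated on serine 2 or serine 5 of the C-terminal domain). All groups share stage, and 6000 embryos were pooled per preparation. The driver of the RNAi is not given in the sources used here. Coverage of the samples was not analysed here, so the values below describe where units lie and what lies around and inside them, and no level of transcription, no effect of MofKD and no depth is given. Units of a genome are a census without replicates, and no test was run on the shares and medians. Differences between classes are therefore given as counts and medians only.

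Most Drosophila genes are compact, with short introns and near neighbours. Long genes owe their span largely to long introns, and many of them encode regulators of the nervous system and of development. A polymerase needs longer to cross such a gene, and other genes can lie inside its introns, where they are transcribed on their own from either strand. In this annotation 0 of 15991 units overlapped another unit of their strand, so any unit nested in a long one lay on the opposite strand. Genes that overlap on the same strand can thus appear together only in units of several genes, which the single-gene rule leaves out.

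The long units had a median length of 54.8 kb, with an interquartile range of 45.4 to 76.1 kb and a maximum of 396 kb. They made up 1.57% of the single-gene units but 23.9% of the length of those units, or 15.9 Mb. There were 140 units under 60 kb, 65 from 60 to 100 kb and 26 of at least 100 kb. The plus strand held 124 and the minus strand 107. Another 231 units of at least 40 kb on the same chromosomes and arms held several genes, of which 126 held 2 genes, and these are not counted among the long single-gene units. Close to the threshold, the members just inside were Cda5 (40003 bp), which encodes a chitin deacetylase, dlg1 (40112 bp), a scaffold protein of junctions and synapses, and robo3 (40180 bp), a Slit receptor of growing axons. Just outside lay NFAT (39824 bp), Liprin-gamma (39610 bp) and DCX-EMAP (39103 bp).

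The 2 longest units lay on 2R, toward its centromere. CG17684 (FBgn0263780) spanned 396036 bp at 2R:1866080-2262115, minus strand, with 2 transcripts. CG45781 (FBgn0267428), named DIP-lambda in the RefSeq gene table and a member of the DIP family of immunoglobulin cell surface proteins, spanned 379081 bp at 2R:326768-705848, plus strand, with 1 transcript. Neither held a nested unit. Snap25 (FBgn0011288), a SNARE of synaptic vesicle fusion, came next on 3L:24074180-24299205, plus strand, with 225026 bp and 2 transcripts, followed by CG40178 (3L, 215672 bp), named l(3)80Fg in RefSeq. The other 6 of the 10 longest included Rbp6 (3L, 179439 bp) and heph (3R, 168534 bp), which encode RNA-binding proteins, and pum (3R, 171340 bp), a translational repressor. The rest of these 6 were flam (X, 158841 bp), a non-coding source of piRNAs, Gprk1 (2R, 148766 bp), a kinase of G protein coupled receptors, and mamo (X, 144412 bp), a zinc finger protein of the germ line. Of these 10 units, 3 started within 2 Mb of the centromere end of their arm, as did 6 of the 26 units of at least 100 kb. Over all long units the count was 11 (4.76%), against 2.13% of units of 10 to 40 kb and 2.02% of all shorter units.

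Long units were present on each chromosome and arm, and the X carried a larger share than each of the 4 large autosome arms. On the X, 48 of 2223 single-gene units were long (2.16%). The autosome arms had 1.22% on 2L (36 units), 1.35% on 3L (39), 1.56% on 3R (55) and 1.63% on 2R (49), or 1.45% of 12379 units when pooled. The X also had more units of intermediate length: 12.4% of its single-gene units reached 10 kb, against 8.80% on the pooled autosome arms. Among units of at least 10 kb, the long ones made up 17.4% for the X and 16.4% for the autosome arms, with 14.2% on 3L and 18.6% on 2R as the lowest and highest arm. The X therefore lay above the other arms in the share of all single-gene units, and inside their range once units under 10 kb were set aside.

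The median long unit measured 60.5 kb on the X, 59.2 kb on 3L, 54.8 kb on 2R, 53.6 kb on 2L and 49.5 kb on 3R. Long units covered 14.4% of the X and 14.8% of 2R, but 9.09% of 2L, where the length of an arm was taken as the last unit's end. The longest on the X were flam, mamo and the non-coding CR44997 (140359 bp). On 2L they were CadN (131288 bp), an adhesion molecule of axons, Snoo (93010 bp), a Ski family regulator of TGF-beta signalling, and nAChRalpha6 (92934 bp), an acetylcholine receptor subunit. fru (131314 bp), the transcription factor of male courtship, came after pum and heph on 3R. Chromosome 4, which is small and largely heterochromatic, held 4 long units among 107 (3.74%). These were bt (52075 bp), the muscle protein projectin, pan (44945 bp), the transcription factor of Wingless signalling, unc-13 (44508 bp), which primes synaptic vesicles, and Cadps (40923 bp), which acts in dense core vesicle release.

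**Figure D1:**
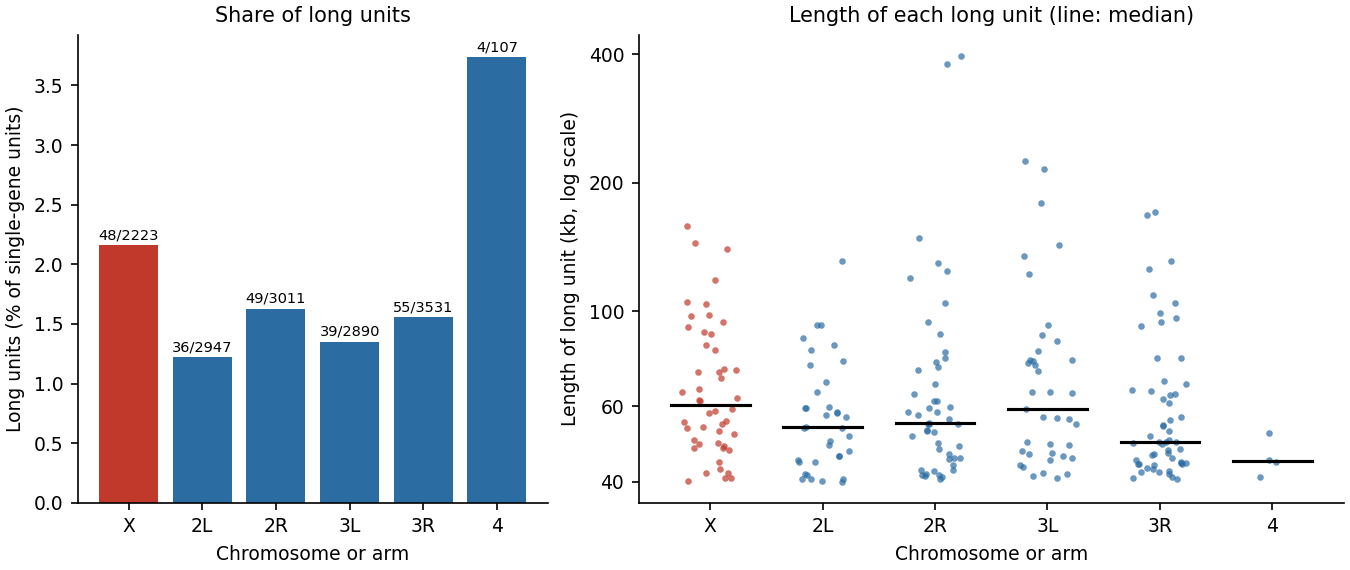
Left, the share of single-gene units of at least 40 kb on each chromosome or arm (percent, with long over all single-gene units above each bar). Right, the length of each long unit in kb on a log scale, with the median as a line: the X (red) has a share of 2.16% and the highest median, 60.5 kb, and the 2 longest units, of 379 and 396 kb, lie on 2R.

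Almost all long units belonged to protein-coding genes. RefSeq entries were found for 230 of 231, and 228 were protein-coding (98.7%, against 98.7% of units of 10 to 40 kb and 80.8% of all shorter units). Shroom had no RefSeq match. The non-coding ones, flam and CR44997, both lie on the X. flam (FBgn0267704) stands for flamenco, a source of piRNAs against transposons in ovarian follicle cells, at X:21631891-21790731 on the plus strand. Unit and RefSeq gene had the same start and end in 227 cases, so the unit starts are the outermost annotated starts of genes and were not measured in these embryos.

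Many listed genes of the nervous system, of development and of RNA binding formed long units. Of 20 listed RNA-binding protein genes, 13 formed single-gene units and 8 of these were long (61.5%): Rbp6, pum, heph, shep, cpo, msi, mub and Syp. Of 48 genes of adhesion and axon guidance, 29 formed single-gene units and 13 were long (44.8%), led by CadN, Ptp99A (109486 bp), a receptor phosphatase, and ds (74971 bp), a cadherin of planar polarity. A further 15 listed genes of this kind, Ten-m, kirre and sli among them, sat in units of at least 40 kb that held several genes. Transcription factors gave 16 long units among 37 single-gene units (43.2%), with fru, jing (119787 bp) and br (89738 bp) the longest. The share over all single-gene units was 1.57%. These lists hold well studied genes and were chosen with earlier results of these data known, so their shares describe the lists and are not a test.

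Channels gave 8 long units among 23 single-gene units (34.8%), from nAChRalpha6 and the calcium channel Ca-alpha1T (88399 bp) to slo (49105 bp), a calcium-activated potassium channel. Muscle and cytoskeleton genes gave 6 of 16, led by the spectraplakin shot (77874 bp) and the titin-like sls (75931 bp). Presynaptic genes gave 4 of 12, led by the polarity scaffold scrib (67702 bp). Neuronal G protein coupled receptors gave 3 of 15, the dopamine receptors Dop2R (58027 bp) and Dop1R1 (49432 bp) and the serotonin receptor 5-HT1A (54804 bp). In cyclic nucleotide and kinase signalling 1 of 10 was long, the phosphodiesterase Pde11 (58318 bp), while 8 of the 22 listed genes shared a long unit with another gene. None of the 7 single-gene units of the MSL complex, roX and Clamp was long. Their longest was 5922 bp. In all, 59 long units were on a list and 172 were on none.

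Of the long units, 55 carried a CG number as their symbol, and RefSeq gave a different symbol for 21 of these. Cell surface receptor families of the nervous system were among the new names, and their counts were made after these values were seen. The side family, immunoglobulin proteins that act as partners of the Beat proteins in motor axon guidance, had 8 genes in the annotation, each a single-gene unit, and 6 were long. They were side (62.4 kb), side-II (CG42313, 64.8 kb), side-III (CG34113, 96.7 kb), side-V (CG34371, 41.0 kb), side-VI (CG34114, 77.8 kb) and side-VIII (CG12484, 54.6 kb). They lay on 2L, 2R and 3R, with 2 to 4 transcripts each. Of the 14 beat genes, 8 formed single-gene units and 3 of these were long: beat-Ib, beat-VI and beat-IIa. The dpr family, whose products bind the DIP proteins across synaptic partners, had 21 genes. Of its 14 single-gene units 3 were long, with dpr21 at 124.5 kb the longest. The DIP family itself had 11 genes and 3 long units among 7, DIP-lambda, DIP-gamma and DIP-kappa (CG31814). A further 3 beat, 5 dpr and 1 DIP genes sat in units of at least 40 kb that held several genes. Together, the 4 families had 54 genes, and 15 of their 37 single-gene units were long.

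Long units carried more transcripts than shorter ones, but within the long units length and transcript number hardly varied together. The median was 5 transcripts (interquartile range 3 to 7.5), against 3 (2 to 5) in units of 10 to 40 kb and 1 (1 to 2) in all shorter units. At least 10 transcripts were annotated for 35 long units (15.2%), against 6.64% in the class of 10 to 40 kb, and 1 transcript for 18 (7.79%), against 13.3%. Per length the order was the opposite, with 0.887 transcripts per 10 kb in long units, 2.22 in units of 10 to 40 kb and 7.55 in units under 10 kb. Spearman's rho between length and transcript number was 0.57 over all 14709 single-gene units, 0.14 over the 1174 units of 10 to 40 kb and 0.04 over the 231 long units. These correlations are descriptions over units of 1 annotation. For 199 protein-coding long units RefSeq listed the same number of transcripts as the annotation.

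Dscam1 (FBgn0033159; 2R:7317924-7381899, minus strand, 63976 bp), known for its large repertoire of alternative exons, had 75 transcripts, the highest number of any unit on these chromosomes and arms. Among the long single-gene units the next were heph with 25, slo with 23, shot with 22 and Zasp52 (2R, 54440 bp), a protein of the muscle Z-disc, with 21. dlg1 and CG34417 also had 21. These genes range from 40.1 to 168.5 kb, and heph ranked 7 by length among the long units. At the other end, the longest units with 1 transcript were DIP-lambda, CR44997, Parp (3R, 125704 bp), a poly(ADP-ribose) polymerase, dpr21 and Ir41a (2R, 104437 bp), an ionotropic receptor. Of these 5 units, DIP-lambda and CR44997 started within 2 Mb of a centromere end. dpr21 (2R:3066499), Parp (3R:3587054) and Ir41a (2R:4917519) started toward the centromere too, but beyond that window. The 11 long units within the window had a median of 3 transcripts, against 5 for the other 220, which include dpr21, Parp and Ir41a. Long units of the X had a median of 6 transcripts (n = 48) and those of the autosome arms 4 (n = 179). In the class of 10 to 40 kb these medians were 4 and 3.

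**Figure D2:**
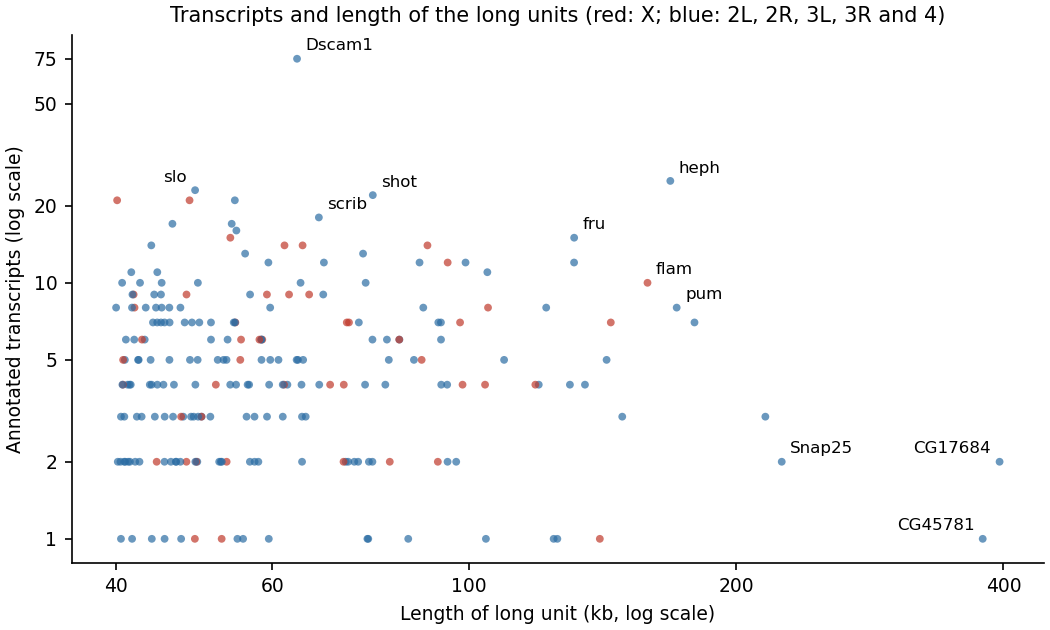
Number of annotated transcripts against length in kb for the 231 long units, both on log scales, with the X in red and the other chromosomes and arms in blue. Dscam1 stands apart with 75 transcripts at 64.0 kb, and the 2 longest units carry 1 and 2 transcripts.

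Long units frequently contained other units on the opposite strand. At least 1 unit lay wholly inside on the other strand in 115 of 231 (49.8%), against 23.0% of units of 10 to 40 kb and 3.04% of units under 10 kb. In total 209 units were nested in long ones. Of the hosts, 63 held 1 unit, 34 held 2, 10 held 3, 5 held 4, Ect4 and beat-Ib held 7 each and Flo2 held 14. Per length, the long units as 1 class did not hold more. They had 1.32 nested units per 100 kb, against 1.70 in units of 10 to 40 kb and 1.51 in units under 10 kb. Among the long units the density was 1.84 per 100 kb from 40 to 60 kb, 1.30 from 60 to 100 kb and 0.483 at 100 kb and above, where 11 of 26 had none. The longest units without a nested unit were CG17684, DIP-lambda, flam, Gprk1 and AGO3 (3L, 135048 bp), an Argonaute protein of the piRNA pathway. The 11 long units near a centromere end held 0.275 per 100 kb, and without them the density of the long units was 1.42. That value still includes CG17684, Gprk1 and AGO3, which started beyond the 2 Mb window.

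**Figure D3:**
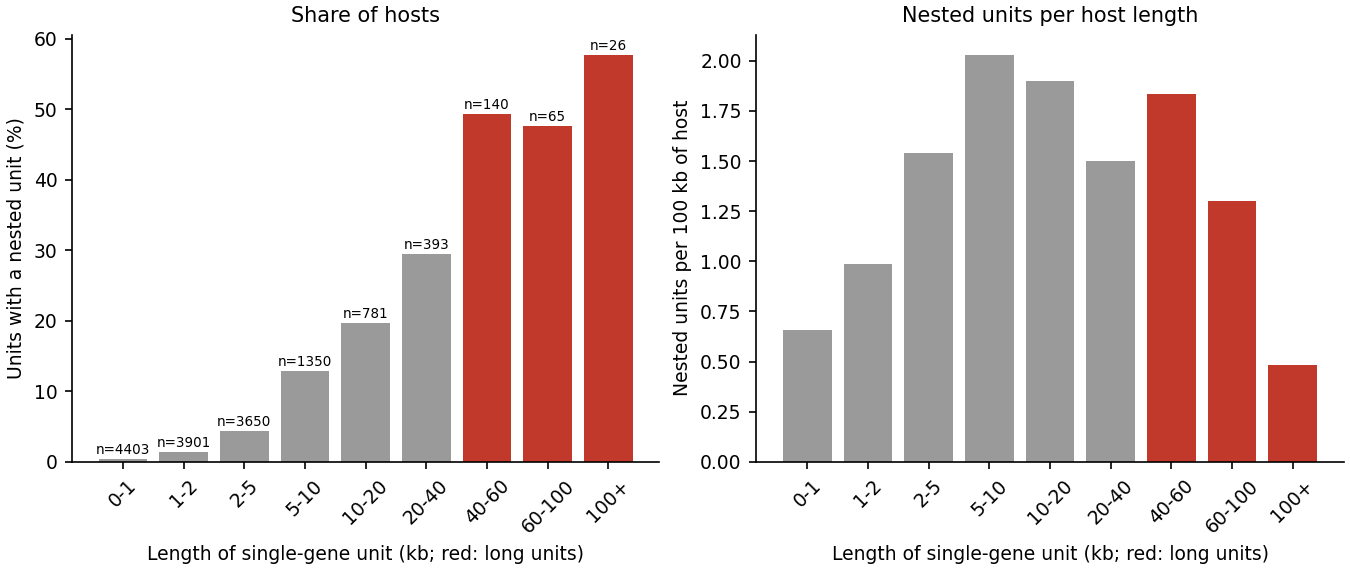
Left, the percent of single-gene units with at least 1 opposite-strand unit wholly inside, by length class in kb, with the number of units above each bar. Right, nested units per 100 kb of host length. The share of hosts reaches 47.7% to 57.7% in the 3 classes of long units (red), while the density falls to 0.483 at 100 kb and above.

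Nested units were short, and the larger part of them coded for protein. Their median length was 1312 bp (interquartile range 689 to 2369) and 205 of 209 held 1 gene. Protein-coding genes made up 132 (63.2%), non-coding CR genes 64 (30.6%) and tRNA genes 12 (5.74%). In hosts of 10 to 40 kb the shares were 60.6%, 34.8% and 3.23%. Of the nested units in long hosts, 0 held only microRNA or snoRNA genes, and 1 unit in msi held the non-coding CR45910 together with mir-1000. By the position of their midpoint, 57, 53, 57 and 42 nested units lay in 4 equal parts of the long host, taken in order from its start to its end. The end of the nested unit nearest to the host's start lay within 1 kb of it in 3 of 209, against 36 of 371 in hosts of 10 to 40 kb, where 1 kb is a larger part of the host.

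Flo2 (FBgn0264078; X:14839376-14933946, plus strand), which encodes the membrane microdomain protein flotillin, was the host with the largest number. Its 94.6 kb held 14 minus-strand units that covered 56.3% of its length, spread from 3241 to 89568 bp from its start. They include CG9503, CG9509, CG9512, CG9514, CG9518, CG9519, CG9521, CG9522, CG12398, CG12539 and the ecdysone oxidase Eo, which belong to the GMC oxidoreductase enzymes. This 1 host carried 14 of the 40 nested units on the X. With it, long X units held 1.19 nested units per 100 kb, and without it 0.796, against 1.34 in long units of the autosome arms. The autosome value keeps its own top hosts, beat-Ib and Ect4 with 7 nested units each, so only 1.19 and 1.34 are a like comparison. The share of hosts was 39.6% on the X, 38.8% on 2R, 56.4% on 3L and 58.3% on 2L, and 3R had 33 hosts among its 55 long units.

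The other leading hosts held mixed passengers. beat-Ib (2L:15905134-15962435, minus strand) held 4 protein-coding and 3 non-coding units. Ect4 (3L:8063874-8108897, plus strand), named Sarm in RefSeq and known for its part in axon degeneration, held 3 tRNA genes for leucine within 4416 bp of its start, with 3 protein-coding and 1 non-coding unit further in. rols (3L, 56635 bp), a gene of myoblast fusion, and CG42260 (2R, 57291 bp) held 4 each. In a few hosts 1 or 2 nested genes took up a large part of the length. CG33158 (3L, 76964 bp) held dsx-c73A (29164 bp) and aos (13265 bp), the secreted inhibitor of the Egf receptor argos, which together covered 55.1% of it. MCU (3L, 43203 bp), the mitochondrial calcium uniporter, held the bristle gene jv (26283 bp, 60.8%). hiw (X, 53293 bp), a ubiquitin ligase of the synapse, held be (17625 bp) and CG5541. The 47270 bp of fry on 3L held the neuropeptide receptor gene CNMaR (15325 bp) and 3 smaller genes. CG33158, MCU, hiw and fry were chosen after their values were seen.

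**Figure D4:**
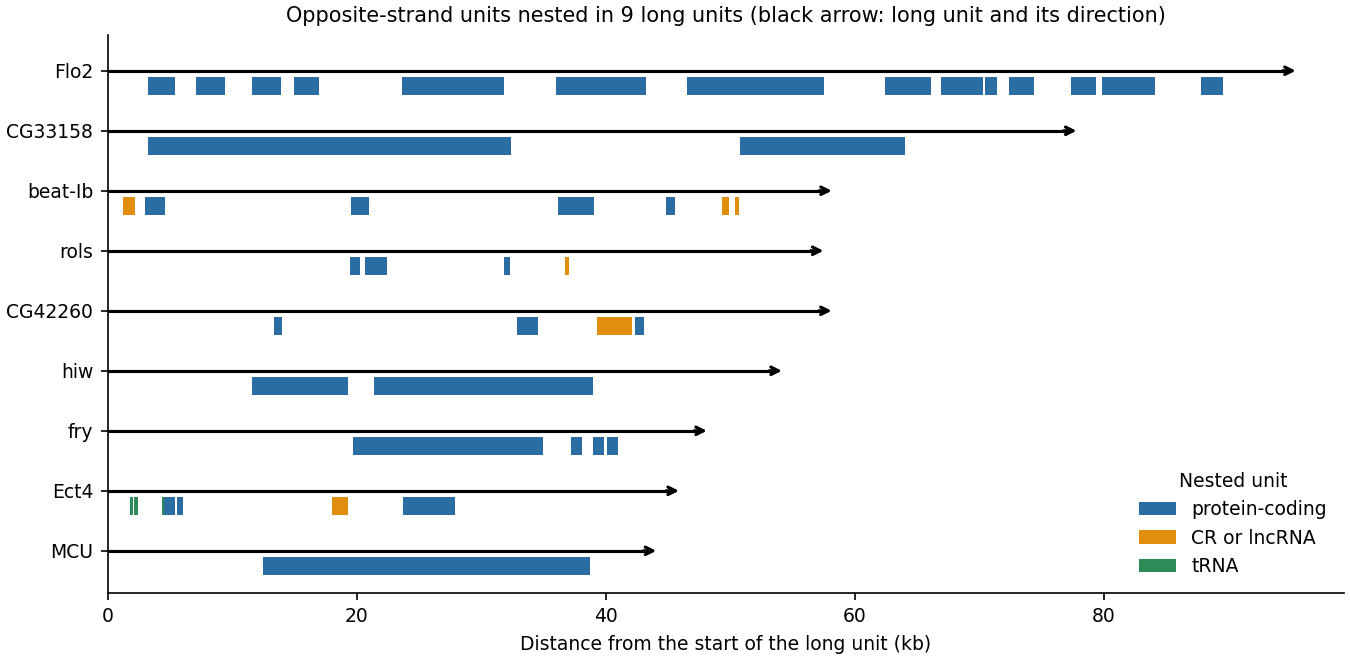
Opposite-strand units nested in 9 long units, drawn to scale by distance in kb from the start of the long unit (black arrow, pointing in the direction of transcription) and coloured by the kind of nested gene. Flo2 holds 14 protein-coding units along its 94.6 kb, and single genes take up much of MCU, CG33158, hiw and fry.

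Nesting and overlap at the ends together touched 143 long units (61.9%), against 40.0% of units of 10 to 40 kb and 37.9% of all shorter units. By length the picture differed. Opposite-strand units covered 6.17% of the length of long units, 8.18% in the class of 10 to 40 kb and 13.8% in units under 10 kb. Nested units alone took up 499 kb, or 3.14% of the long units. Among the coverage products that the labels list is a sum over both strands, in which signal of a nested unit and of its host falls in the same bases. There were 2 long units wholly inside a unit of the other strand, both on the X: br, an ecdysone response gene, and bi (72792 bp), a T-box transcription factor. The unit around br spans 145744 bp and also holds Mur2B, and the unit around bi spans 223710 bp and holds CR32773, rb, Usf and 3 other genes. CG9650 (X, 104210 bp), Cph in RefSeq, was overlapped over 76.5% of its length. With these 3 genes, opposite-strand units covered 11.1% of the long X units, against 4.83% for long autosomal units. In the class of 10 to 40 kb the X also had the higher value, 12.6% against 7.12%. Without br, bi and CG9650, a removal chosen after the values were seen, the long X units had 4.21%. The autosome value keeps its own highly covered units, such as eys (96.6%) and tun (61.6%). Only 11.1% and 4.83% are therefore a like comparison.

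A pair of long units overlapped each other in 2 places, both times with starts that face into each other's interval. On 2L, CG9967 (2308761 to 2357356, minus strand) and eys (2311680 to 2358944, plus strand), a gene of the photoreceptor extracellular space, shared 45677 bp, or 94.0% and 96.6% of their lengths. On 2R, Zasp52 and tun (15794000 to 15855645, plus strand) shared 23005 bp. tun also held the paired-box gene Poxn. Another 7 pairs lay within 10 kb without overlap. The closest were the convergent ends of eag, a potassium channel, and hiw (147 bp apart) and of tinc and Rim, an active zone protein (240 bp apart). Rim and cpo, an RNA-binding protein gene, started 3254 bp from each other in opposite directions, so tinc, Rim and cpo follow each other on 3R with no unit between them. All pairs were found after the values were seen.

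The starts of long units had more free space than their ends. Upstream of the start, the median distance to the next unit on either strand was 2102 bp (n = 229, since 2 units had no unit upstream), against 798 bp in units of 10 to 40 kb and 319 bp in units under 10 kb. Downstream of the end it was 513 bp, against 319.5 and 149 bp. At least 10 kb was free upstream of 46 long units (19.9%), against 10.6% in the class of 10 to 40 kb. AGO3 had the widest such space, 208656 bp. From units of 5 to 10 kb on, the median upstream distance was longer in each longer class: 468.5, 699.5, 1066, 1715, 2167 and 9833 bp. Without the 11 units that start within 2 Mb of a centromere end, the medians of the long units were 2097 bp upstream and 459 bp downstream. This window did not take in CG17684, Gprk1, Parp or AGO3, which had 112515, 36934, 36088 and 208656 bp free upstream.

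On the same strand, where no units overlapped, the next unit lay a median of 6766 bp upstream and 5278 bp downstream of long units. In the class of 10 to 40 kb these distances were 3424 and 3351.5 bp. The nearest unit on either strand was at 0 bp for the median long unit, where any overlap counts as 0 and 143 of 231 overlapped an opposite-strand unit, against 93 bp and 77 bp in the shorter classes, while the nearest on the same strand was at 2383 bp against 1324.5 and 1001 bp. Long units thus more often overlapped an opposite-strand unit, and were farther from other units on their own strand. From the start and from the end, the next unit on either strand was also farther. Its median distance was 2102 bp upstream and 513 bp downstream, against 798 and 319.5 bp in units of 10 to 40 kb. In 49 long units (21.2%) there was neither an opposite-strand overlap nor a unit within 500 bp of an end, a share near that of 10 to 40 kb units (25.9%) and of all shorter units (20.6%).

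**Figure D5:**
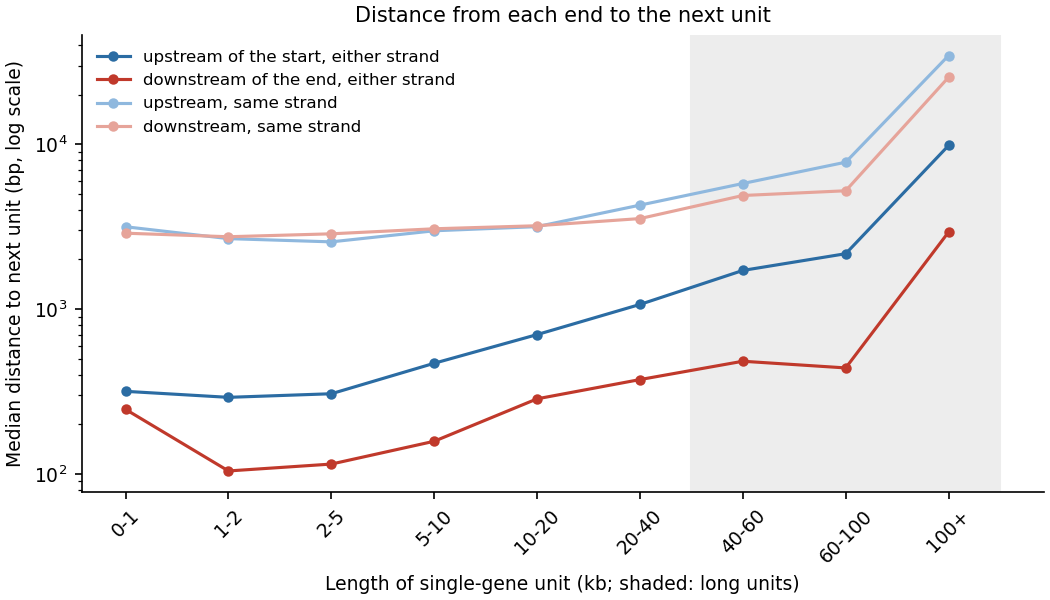
Median distance in bp (log scale) from the start and the end of single-gene units to the next unit on either strand or on the same strand, by length class in kb, with long units shaded. Upstream of the start, the median on either strand is 468.5 bp at 5 to 10 kb, 1715 bp at 40 to 60 kb and 2167 bp at 60 to 100 kb.

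Head-to-head starts were less frequent among long units than among all shorter units, but about as frequent as in units of 20 to 40 kb. An opposite-strand unit started within 500 bp upstream of 26 long units (11.3%), against 16.0% of units of 10 to 40 kb and 24.5% of all shorter units. Within the class of 10 to 40 kb, the share was 17.7% from 10 to 20 kb and 12.7% from 20 to 40 kb. The latter lay inside the range of the long classes, from 10% at 40 to 60 kb to 13.8% at 60 to 100 kb. On the X, 7 of 48 long units had such a start (14.6%), against 18 of 179 (10.1%) on the autosome arms, with 18.0% and 16.0% in the class of 10 to 40 kb. The partners were short, with a median of 1209.5 bp and a range of 468 to 19420 bp. They were 19 protein-coding units and 7 non-coding CR units. The closest pair was tyn (X, 58456 bp) with CR45473 at 11 bp, followed by lilli (2L, 68478 bp), a transcription elongation factor of the AFF family, with NTPase at 79 bp and by fry with CG16717 at 98 bp. mamo faced CR44655 at 206 bp, heph faced CR45557 at 421 bp and Cadps faced Dyrk3 at 124 bp. Genes of general cell function were among the partners, such as TyrRS beside CG33158, mRpL33 beside norpA and ND-B18 beside hiw. The start itself lay inside an opposite-strand unit in 14 long units (6.06%), against 10.1% in the class of 10 to 40 kb and 17.1% of all shorter units. The end did so in 38 (16.5%), against 17.0% and 30.7%. tyn, lilli, fry and the partners were named after their values were seen.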

How the data were processed

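The sources give 37 mNET-seq samples, grouped by Pol II form, sex and RNAi from their titles. The submitters' processing notes name the build dm6 and, as tools, STAR 2.7.4a, cutadapt 2.8, DESeq2, DESeq and SAMtools 1.20, without their settings. The annotation was deposited with 1-based coordinates in bp, and per the file headers rtracklayer 1.48.0 wrote it as GFF version 2; how genes were merged is not stated. Sample coverage was not analysed here.

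Stated lengths differed from those given by the coordinates in 0 units. Transcripts were counted from the FlyBase transcript identifiers of each unit. Gene classes and current symbols were looked up in RefSeq genes for that build, by symbol or by a synonym fitting 1 gene on that chromosome. Nested meant wholly inside on the opposite strand. A distance was the number of bases between units, with 0 for overlap. The centromere end was the last unit's end on X, 2L and 3L and the arm's first base on 2R and 3R. No test was run. Measures of overlap, nesting and distance to the next unit were checked against plain loops on simulated units. Distances between divergent starts, counts of covered starts and ends, and units inside another were not part of that check. The rule for named genes took the longest units overall and per arm or list, those with the highest or lowest transcript and nested counts, and those next to 40 kb; other names were chosen after their values were seen. Members and lists were chosen with earlier results of these data known. Alternatives changed the length minimum, the comparison class, gene class, centromere region, overlap and distance. Protein lengths and promoter motifs were not analysed here. Python 3.11.15, numpy 2.4.6, pandas 2.3.3, scipy 1.17.1 and matplotlib 3.10.9 were used.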

Additional observations from a re-analysis of the deposited data

How the results depend on the processing

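Of 32 values under other settings, 21 stayed within the 95% binomial interval of the value reported, or within 1.5 times for a count. Units are a census, so the interval served only as a yardstick of change, and its width depends on the number of units. These 21 include values that could not move. With units of 10 to 40 kb as the comparison class, transcripts, hosts, gap and divergent starts of long units stay the same by construction. The difference from the comparison class did change, from 45.1 to 26.8 percentage points for hosts. For divergent starts it went from -13.3 to -4.76. The number of long units was 370 with a minimum of 30 kb and 138 with 50 kb. The X share was 3.28% and 1.53% with these minimums (autosome arms 2.34% and 0.832%), and 17.4% against 16.4% among units of at least 10 kb. It stayed above the pooled autosome arms in each of the 5 alternatives. The share of hosts was 41.4% with a minimum of 30 kb, 61.9% when any overlap of 1 bp counted and 34.6% with nested units of at least 1 kb, each above the shorter units (4.44%, 37.9% and 2.53%). The share with a divergent start was 4.33% within 0.25 kb and 21.2% within 1 kb, each below the shorter units (12.8% and 33.3%). The gap to the nearest unit reversed on the same strand alone, 2383 bp against 1036.5 bp. On both strands any overlap counts as 0, which held for 143 long units with an opposite-strand overlap, and nesting was not separated from other overlap. Transcript medians were 4 to 5 throughout. Chosen after seeing the data, nested density without Flo2 was 1.23 per 100 kb. No paired analysis was possible because the annotation holds no value per sample. Comparisons of protein length and promoter motifs, which need sequences, were not run. Transcript numbers and unit ends depend on how fully each gene is annotated, which was not tested.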
